A study of Mus musculus with 6 samples.

Results

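The phagocyte NADPH oxidase and part of the transcriptional response to oxidants were followed through 9 genes of the 55573 in the count table. Subunits of the oxidase were represented by 5 of them (*Cybb*, *Cyba*, *Ncf1*, *Ncf4* and *Rac2*), and the response by the other 4 (*Hmox1*, *Nqo1*, *Slc7a11* and *Gclm*). The 9 genes were chosen with their counts in the Ezh2 and GFP libraries already known, so their own levels and differences are given as description and carry no test.

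The libraries came from retinal cells of C57BL/6J mice that had received AAV2-GFP (control) or AAV2-Ezh2, adeno-associated virus vectors, in the vitreous. Crush of the optic nerve followed the injection by 2 weeks in both groups, and cells stained for the surface protein encoded by *Thy1* were sorted 3 days after the crush, with dead cells gated out by a dye. There were 3 libraries in each group. The study left out 1 Ezh2 library, taken here to be replicate 3, so the main comparison set 3 GFP libraries against Ezh2 replicates 1 and 2, and values in replicate 3 stand beside it. The labels do not say how many mice made up a library, so the spread between libraries may be partly technical. *Ezh2* encodes the catalytic subunit of a Polycomb complex that methylates histone H3, and its transcript checked the labels. Levels are given as CPM, the count of a gene divided by all counts of its library on a fixed scale. Single libraries are listed in the order of replicates 1 to 3 throughout. *Ezh2* stood at 28.8, 34.6 and 33.0 CPM in GFP replicates 1 to 3 and at 78.0, 65.3 and 105 CPM in Ezh2 replicates 1 to 3.

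The phagocyte oxidase is an enzyme of microglia, macrophages and neutrophils that passes electrons from NADPH to oxygen and releases superoxide. *Cybb* and *Cyba* encode its membrane core, while *Ncf1* and *Ncf4* encode cytosolic subunits that join the core together with a Rac GTPase once the cell is stimulated. In many cell types oxidants stabilise the transcription factor NRF2, encoded by *Nfe2l2*, which induces genes for glutathione synthesis, quinone reduction and haem breakdown. The deposited counts measure transcripts and not the assembly of the enzyme or the release of superoxide.

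The tissue label was checked first, because the oxidase is best known from phagocytes. The sort was meant to enrich retinal ganglion cells (RGCs), but the RGC transcription factors *Pou4f1* and *Pou4f2* did not exceed 0.600 and 0.0932 CPM, where 3 counts correspond to 0.0834 to 0.0981 CPM. The RGC transcript *Rbpms* lay between 16.4 and 20.8 CPM. Of the other RGC markers, *Thy1*, the sort antigen, lay between 87.2 and 114 CPM, *Nefl* between 9.42 and 15.4 and *Slc17a6* between 4.09 and 8.17. *Nefm* lay between 2.44 and 3.92 CPM and *Sncg* between 1.73 and 3.36. All cells were taken after crush, and the share of RGCs was not tested. *Glul*, an enzyme of Müller glia, lay between 5446 and 9900 CPM, and the myeloid receptor gene *Csf1r* between 447 and 545 CPM in replicate 3 and the GFP libraries and at 615 and 613 CPM in Ezh2 replicates 1 and 2. Total counts per library ranged from 30569933 to 35971192. Ezh2 replicate 3 stood apart from the other Ezh2 libraries, with correlations of 0.971 and 0.972 across genes against 0.988 between replicates 1 and 2. Of 19732 genes, 32.7% lay above and 47.1% below every GFP library in it. These were bulk libraries, so a change in the number of cells of a type and a change in RNA per cell cannot be told apart.

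Promoter sequence was read for the members as context for the values that follow. RefSeq (GRCm38.p6) windows from 250 bases before to 50 bases after the transcription start were at hand for 6 of the 9 members. *Hmox1*, *Ncf4* and *Rac2* had no entry. Windows were searched on both strands for GAGGAA, the core recognised by the myeloid factor PU.1, and for TGACNNNGC, the core of the antioxidant response element that NRF2 binds. The first was present in *Cybb* and *Slc7a11* and the second in *Gclm* alone. Of 32851 RefSeq promoter windows, 28.3% held the first core and 12.4% the second. Each stretch below is shown 5′ to 3′ on the gene's own strand, because it is where the letters occur in a member, and the capitals mark the match.
Cybb: tgctgttttcatTTCCTCatcagaagaaga
Slc7a11: ggagccttccacGAGGAAgctgagctggtg
Gclm: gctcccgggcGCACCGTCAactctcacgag
The *Cybb* stretch lies at chrX:9469298-9469327 on the minus strand and holds GAGGAA as its reverse complement, 9 bases after the start. In the GENCODE annotation *Cybb* extends to chrX:9487771, so its start there lies upstream of the RefSeq start used here. The *Slc7a11* stretch lies at chr3:50443578-50443607 on the minus strand, 18 bases after the start. For *Gclm* the stretch lies at chr3:122245413-122245442 on the plus strand, and the match, also a reverse complement, begins 134 bases before the start. The matches describe letters only.

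Of the membrane core, *Cybb*, the electron-carrying subunit, had the largest difference among the 9 members. It read 95.4, 100.4 and 89.8 CPM in the controls and 182, 195 and 135 CPM in the Ezh2 libraries. All Ezh2 libraries lay above all GFP libraries, with replicate 3 between the other Ezh2 libraries and the controls. The gene is ENSMUSG00000015340, on the minus strand at chrX:9435252-9487771. Its log2 fold change was 0.99 ± 0.056 (SE, 5 libraries) and 0.88 ± 0.11 with replicate 3 included. *Cyba*, which encodes the partner that stabilises *Cybb* protein in the membrane, read 81.7, 80.2 and 75.2 CPM in the controls and 109, 126 and 110.1 CPM in the Ezh2 libraries. Here replicate 3 sat within the range of the other Ezh2 libraries, and the groups did not overlap. The log2 fold change of *Cyba* was 0.58 ± 0.063 in 5 libraries, a fold of 1.498 that fell just short of the fold of 1.5 asked of a call.

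The cytosolic subunits were also higher in the Ezh2 group. *Ncf1*, the organiser that brings the cytosolic subunits to the membrane, read 103, 105 and 93.9 CPM in the controls and 132, 127 and 123 CPM in the Ezh2 libraries. The lowest Ezh2 library was above the highest control, and the log2 fold change was 0.38 ± 0.056. Exons of *Ncf1* share 408 bases with *Gtf2ird2* on the opposite strand, and the sources used here do not give the strand setting, so reads there are uncertain. *Ncf4*, whose product binds a phosphoinositide of the phagosome membrane, read 21.9, 22.5 and 17.7 CPM in the controls and 30.6, 34.4 and 34.6 CPM in the Ezh2 libraries. The 3 Ezh2 libraries were again above the 3 controls, and the log2 fold change was 0.66 ± 0.098.

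*Rac2*, the Rac GTPase of blood cells, behaved differently in replicate 3 from the other subunits. It read 119, 119 and 116 CPM in the controls, 154 and 148 CPM in Ezh2 replicates 1 and 2, and 222 CPM in Ezh2 replicate 3. The groups did not overlap, but the size of the difference depended on that library, with a log2 fold change of 0.37 ± 0.051 in 5 libraries and 0.62 ± 0.18 in 6. Some T cell transcripts were also highest in that library. The 7 T cell markers summed to 357 to 481 CPM in the other 5 libraries and to 743 CPM in Ezh2 replicate 3. *Cd2* differed most, at 41.9 to 53.0 CPM and 189 CPM, whereas *Cd3g* at 83.4 CPM was close to the 81.5 and 77.7 CPM of Ezh2 replicates 1 and 2, and *Cd8a* at 37.9 CPM was below their 44.5 and 46.2 CPM. T cells also express *Rac2*. Their part in the *Rac2* value was not tested.

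**Figure D1:**
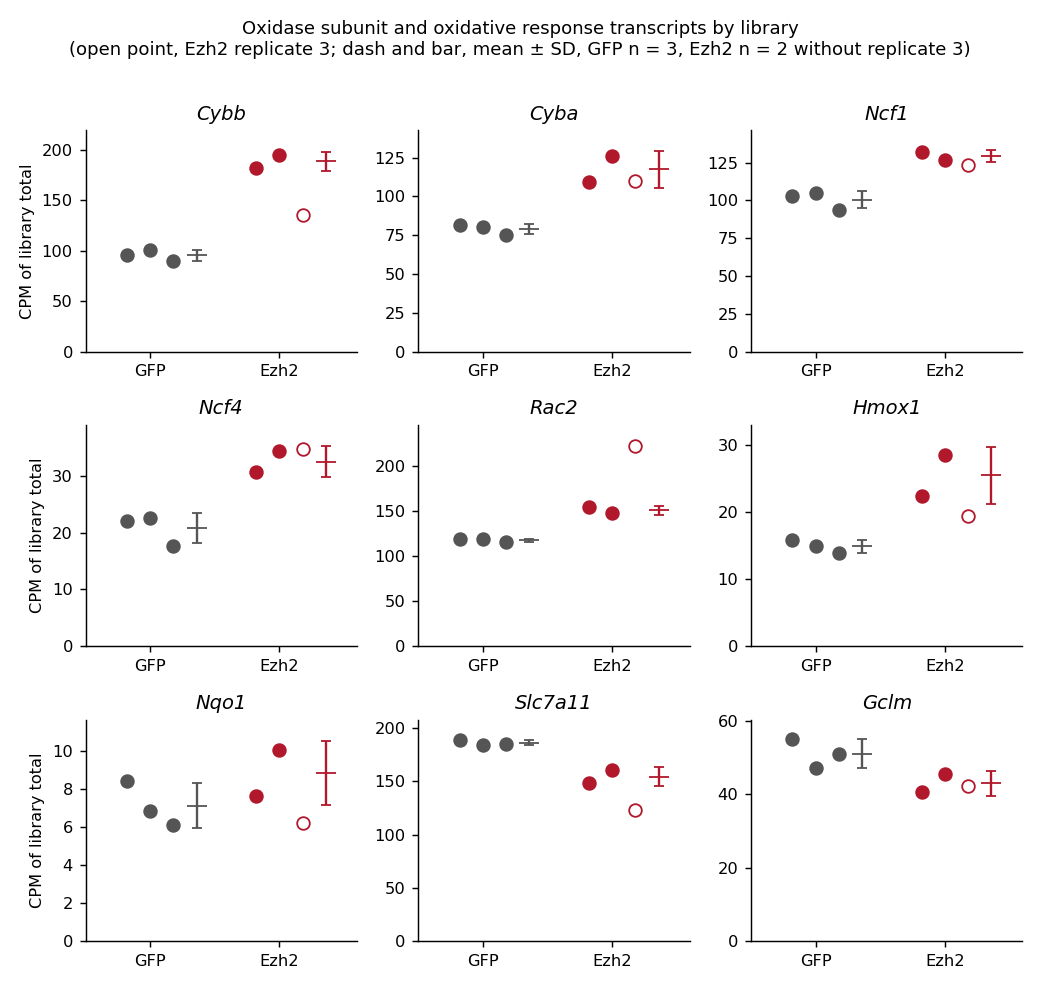
Each panel plots 1 member gene, with CPM of the library total on the vertical axis and 1 point per library (grey, GFP; red, Ezh2; open, Ezh2 replicate 3). Dashes and bars give the mean ± SD of 3 GFP libraries and of Ezh2 replicates 1 and 2. All Ezh2 points lie above all GFP points for the oxidase subunits and *Hmox1*, below them for *Slc7a11* and *Gclm*, and among them for *Nqo1*.

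The response genes did not share a direction. *Hmox1* encodes the inducible haem oxygenase, which opens the haem ring and frees its iron, and is also strongly expressed by macrophages that take up red cells. It read 15.8, 14.9 and 13.9 CPM in the controls and 22.4, 28.5 and 19.5 CPM in the Ezh2 libraries. Every Ezh2 library was above every control, and the log2 fold change was 0.79 ± 0.11 in 5 libraries and 0.69 ± 0.14 in 6. *Nqo1*, a quinone reductase and a standard NRF2 target, had the lowest counts of the members, from 187 to 352 per library. It read 8.41, 6.82 and 6.08 CPM in the controls and 7.64, 10.05 and 6.20 CPM in the Ezh2 libraries. The groups overlapped, with a log2 fold change of 0.33 ± 0.16 in 5 libraries and 0.20 ± 0.20 in 6.

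The glutathione genes among the members were lower in the Ezh2 group. *Slc7a11*, the cystine importer that supplies glutathione synthesis, read 189, 185 and 185 CPM in the controls and 148, 161 and 123 CPM in the Ezh2 libraries. The controls were close together and all Ezh2 libraries fell below them, most of all replicate 3. Its log2 fold change was -0.26 ± 0.053 in 5 libraries and -0.34 ± 0.084 in 6. *Gclm*, the modifier subunit of the enzyme that makes the glutathione precursor, read 55.1, 47.3 and 51.0 CPM in the controls and 40.6, 45.5 and 42.4 CPM in the Ezh2 libraries. The highest Ezh2 library was just below the lowest control, and the log2 fold change was -0.24 ± 0.078. Exons of *Gclm* share bases with *Gm17494* on the opposite strand and with the pseudogene *Gm6061* on the same strand.

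A gene was called when its adjusted p across all tested genes was under 0.05 and its fold change exceeded 1.5. By these criteria 3 of the 9 members (*Cybb*, *Ncf4* and *Hmox1*) were called higher and 0 lower, where 2.52% of the 20241 genes tested were called higher and 1.28% lower. With all 6 libraries the same 3 were called, against 1.62% of 19732 tested genes called higher and 0.902% lower. *Ncf4* fell below the fold asked of a call without GFP replicate 3 (log2 fold change 0.558) or without Ezh2 replicate 2 (0.561). *Cyba* passed it without GFP replicate 1 (0.607), GFP replicate 2 (0.593) or Ezh2 replicate 1 (0.696). The libraries of the groups did not overlap for 6 members that were higher in the Ezh2 group and for 2 that were lower. Across all genes tested in 6 libraries this held for 14.9% and 19.3%. The members were chosen from this contrast, so nothing is read from these counts.

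**Figure D2:**
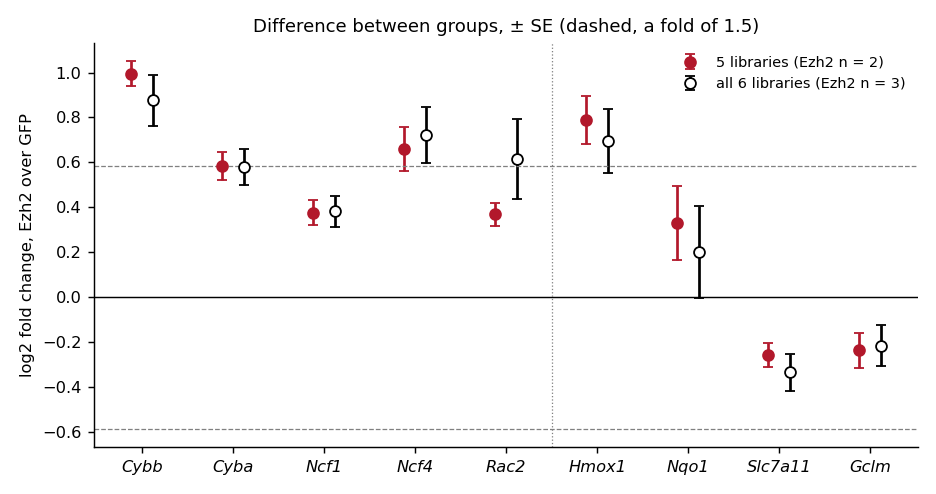
The vertical axis gives the log2 fold change of Ezh2 over GFP ± SE for each member, in 5 libraries (red) and in all 6 (open), with dashed lines at a fold of 1.5. *Cybb* lies highest at 0.99, *Slc7a11* lowest at -0.26 in 5 libraries, and *Rac2* moves most on adding replicate 3, from 0.37 to 0.62.

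Levels of the members were ranked against each other after division by exon length, as CPM per kilobase. The length merges all annotated exons of a gene, so the order depends on that choice. In the GFP libraries *Cyba* came first at 76.1 ± 3.3 CPM per kilobase (SD, n = 3), before *Rac2* at 37.9 ± 0.55, *Ncf1* at 27.4 ± 1.6 and *Cybb* at 16.4 ± 0.92. *Slc7a11* followed at 13.4 ± 0.18 and *Ncf4* at 10.3 ± 1.3. *Hmox1* at 8.49 ± 0.53 and *Gclm* at 8.13 ± 0.62 did not differ beyond their spread, and *Nqo1* was last at 4.58 ± 0.76. In Ezh2 replicates 1 and 2, *Cybb* at 32.4 ± 1.6 CPM per kilobase (SD, n = 2) was close to *Ncf1* at 35.3 ± 1.1. *Hmox1* at 14.5 ± 2.4 overlapped *Ncf4* at 16.1 ± 1.3 and had passed *Slc7a11* at 11.1 ± 0.65. Transcript of the catalytic subunit was thus below that of its membrane partner per unit length in both groups.

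The other genes of the oxidase pathway were taken as a list that holds no member. Of 13 partners, all tested, *Nrros* alone was called higher. *Nrros* encodes a protein of the endoplasmic reticulum that limits the amount of oxidase in phagocytes. It read 44.5, 47.9 and 44.3 CPM in the controls and 67.8, 71.6 and 89.4 CPM in the Ezh2 libraries, with no overlap. Its log2 fold change was 0.63 ± 0.068, with an adjusted p of 5.3e-08 in 5 libraries and 0.010 in 6. Without Ezh2 replicate 2 it was 0.57, under the fold asked of a call. At an adjusted p under 0.05 whatever the fold, 12 of the 13 partners were higher and 0 lower, where 10.1% of all tested genes were higher and 7.68% lower. The median log2 fold change of the 13 was 0.31, beside -0.0078 over all tested genes. With all 6 libraries the count at that adjusted p was 6 of 13, all higher, where 3.08% of all tested genes were higher and 2.7% lower. The shift was not particular to this list, which was chosen with earlier results of these data known. In 5 libraries 7 of 8 pan-myeloid markers and 6 of 7 T cell markers were higher at that adjusted p. In both lists 0 were lower, and the median log2 fold changes were 0.49 and 0.33. Of 8 microglial markers 3 were higher and 1 lower. With all 6 libraries 4 of 8 pan-myeloid and 2 of 7 T cell markers were higher at that adjusted p and 0 lower. Of the microglial markers 1 was then higher and 1 lower.

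Among the other partners, *Vav1*, an exchange factor that activates Rac, had a log2 fold change of 0.56 ± 0.055 in 5 libraries and 0.65 ± 0.085 in 6, and was called in the latter alone (adjusted p = 0.0046). *Rac1*, the Rac GTPase found in most cell types, had a log2 fold change of 0.16 ± 0.052 (adjusted p = 0.026). In edgeR its adjusted p was 0.12 with all 6 libraries and 0.094 with a block on replicate number in 5. Its exons share 2309 bases with *Daglb* on the opposite strand, so reads there are uncertain. *Cybc1*, which encodes the chaperone of the membrane core, had a log2 fold change of 0.28 ± 0.065 (adjusted p = 0.0019).

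Transcripts of the other NADPH oxidases were near the limit of detection. Of 9 genes for other catalytic subunits and their cofactors, 8 were under 1 CPM in every library, and *Nox3* and *Duox1* had 0 counts in all 6, where 0 allows up to 3 counts. *Noxo1* was the exception, at 4.65 to 6.18 CPM, and its exons share 2122 bases with *Tbl3* on the opposite strand. *Nox4* did not exceed 0.379 CPM, and a difference (log2 fold change 0.35 ± 0.80, adjusted p = 0.83) was not detectable at this depth. In the edgeR test 0 of the 3 genes that passed the filter were called, 0 had an unadjusted p under 0.05, and DESeq2 and limma-voom called 0. Per kilobase in the GFP libraries *Cybb* stood at 16.4 CPM, against 0.134 for *Nox1* and 0.028 for *Nox4*.

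Of 6 other oxidant-producing or phagocyte enzymes, 3 were tested and 1 was called. This was *Acod1*, which makes itaconate in activated macrophages, at 11.6, 12.2 and 9.44 CPM in the controls and 17.3, 16.8 and 16.6 CPM in the Ezh2 libraries. Its log2 fold change was 0.63 ± 0.12 (adjusted p = 0.00021), and 0.53 without GFP replicate 3, which ended the call. Inducible nitric oxide synthase (*Nos2*) lay between 0.584 and 1.24 CPM in the 6 libraries. *Mpo*, *Epx* and *Lpo*, peroxidases of granulocytes and secretions, stayed under 1 CPM.

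The wider oxidative response was followed in 48 genes outside the members, all of them tested. Of these, 2 were called higher (*Ftl1* and *Slc40a1*) and 1 lower (*Sod3*), where 2.52% of all tested genes were called higher and 1.28% lower. At the adjusted p alone 13 were higher and 1 lower, where 10.1% of all tested genes were higher and 7.68% lower. With all 6 libraries 1 was called higher and 1 lower. At the adjusted p alone 5 were then higher and 1 lower, where 3.08% of all tested genes were higher and 2.7% lower. The median log2 fold change of the 48 was 0.085 in 5 libraries. The lists were drawn by function, so genes that NRF2 induces are not confined to a single list. The list of NRF2 regulators holds genes that act with it and against it. In the edgeR test 0 of 7 NRF2 regulators were called, 2 had an unadjusted p under 0.05, and DESeq2 and limma-voom called 0. Those 2 were *Nfe2l2*, at a log2 fold change of 0.31 ± 0.057 (adjusted p = 0.00018), and *Bach1*, a repressor of *Hmox1*, at 0.37 ± 0.066 (adjusted p = 0.00011). *Keap1*, which marks NRF2 for degradation, had a log2 fold change of 0.018 ± 0.065 (adjusted p = 0.90) that changed sign in some of the alternatives.

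For the 18 genes of glutathione, thioredoxin and NADPH supply, edgeR called 0, and DESeq2 and limma-voom called 0, with 5 at an unadjusted p under 0.05. At the adjusted p whatever the fold, 4 were higher and 0 lower in 5 libraries (*Txn1*, *Pgd*, *Taldo1* and *Tkt*), and 0 in 6. Thioredoxin (*Txn1*) had the largest log2 fold change of these, 0.53 ± 0.076 (adjusted p = 5.0e-06), and 0.77 ± 0.18 in 6 libraries (adjusted p = 0.054). The other 3 act in the pentose phosphate pathway, and they and *Txn1* were chosen for mention after their values were seen. The median log2 fold change of the 18 was 0.067. *Gclc*, the catalytic partner of *Gclm*, had a log2 fold change of 0.052 ± 0.073 (adjusted p = 0.70). *Txnrd1*, a thioredoxin reductase, had 0.098 ± 0.054 (adjusted p = 0.24), and *Srxn1*, which repairs peroxiredoxins, 0.022 ± 0.079 (adjusted p = 0.89), a direction that turned with all 6 libraries. *Slc3a2*, which pairs with *Slc7a11* in the membrane, had a log2 fold change of 0.017 ± 0.050 (adjusted p = 0.87), chosen for mention after its value was seen.

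Haem and iron genes gave 2 of the 3 calls. *Ftl1*, the ferritin light chain, read 314, 315 and 303 CPM in the controls and 491, 575 and 456 CPM in the Ezh2 libraries. The groups did not overlap, and the log2 fold change was 0.79 ± 0.058 (adjusted p = 5.0e-10). *Fth1*, the ferritin heavy chain, had a smaller log2 fold change of 0.39 ± 0.064 (adjusted p = 0.00018). With all 6 libraries it was 0.31 ± 0.098 (adjusted p = 0.099). Ezh2 replicate 3, at 392 CPM, lay among the controls at 361 to 413 CPM. Ferritin genes have many processed pseudogenes, so reads may be shared between copies. *Slc40a1*, the iron exporter, read 7.59, 6.76 and 6.57 CPM in the controls and 10.3, 15.8 and 6.98 CPM in the Ezh2 libraries. Its call in 5 libraries (log2 fold change 0.92 ± 0.16, adjusted p = 9.5e-05) was lost with replicate 3, which lay among the controls (adjusted p = 0.15). *Hmox2*, the constitutive haem oxygenase, had a log2 fold change of 0.19 ± 0.087 (adjusted p = 0.15).

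Among 14 enzymes that remove superoxide and peroxide, the extracellular superoxide dismutase *Sod3* was called lower. It read 10.8, 13.4 and 10.9 CPM in the controls and 5.68, 7.54 and 6.59 CPM in the Ezh2 libraries. All Ezh2 libraries were below all controls, with a log2 fold change of -0.81 ± 0.15 (adjusted p = 0.00024). The mitochondrial *Sod2* had a log2 fold change of 0.0054 ± 0.064 (adjusted p = 0.97), with a sign that depended on the setting. *Gpx1*, a glutathione peroxidase, was chosen for mention after its values were seen, and had a log2 fold change of 0.54 ± 0.062 (adjusted p = 1.3e-07), short of the fold asked of a call.

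**Figure D3:**
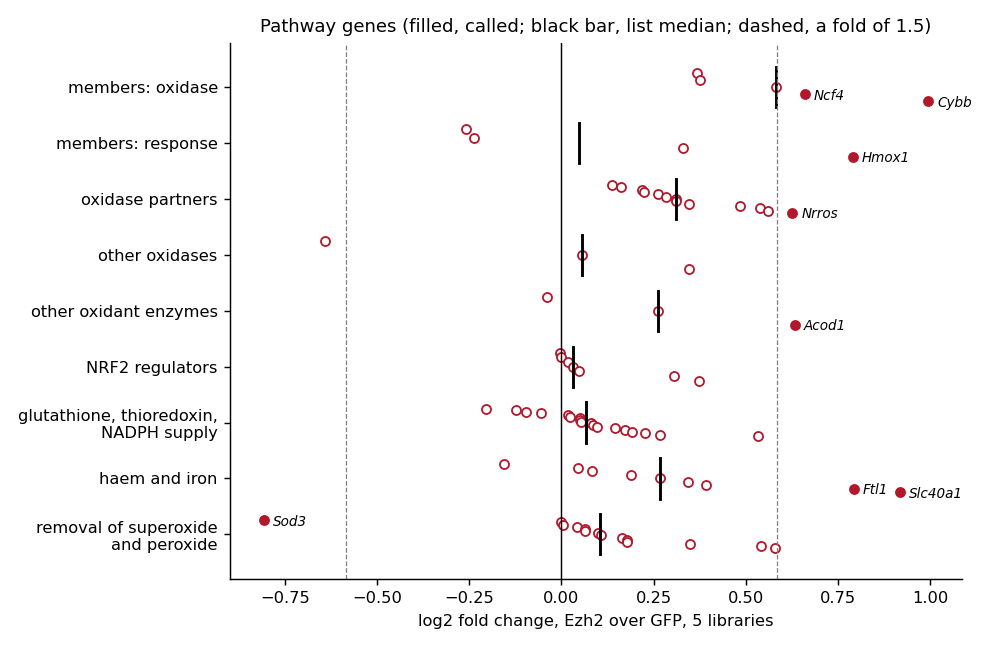
Each point is the log2 fold change of 1 tested gene in 5 libraries, by list, with filled points for called genes, black bars for list medians and dashed lines at a fold of 1.5. The 13 oxidase partners all lie above 0 with a median of 0.31, whereas the NRF2 regulators and the glutathione, thioredoxin and NADPH genes centre near 0, at 0.031 and 0.067.

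Markers of the cells that could carry these transcripts were read beside the members. Of 8 pan-myeloid markers, 3 were called higher (*Tyrobp*, *Fcer1g* and *Cd68*) and 0 lower. Their summed level was 1008 to 1105 CPM in GFP libraries and 1155 to 1455 CPM in Ezh2 libraries. The median log2 fold change of the list, 0.49, was below those of *Cybb*, *Cyba*, *Ncf4* and *Hmox1* and above those of *Ncf1* and *Rac2*. Within the list, *Cd68*, a lysosomal protein of phagocytes, was highest at 1.35 ± 0.088 (adjusted p = 1.1e-08), while *Csf1r*, with the highest CPM of the list, had 0.26 ± 0.050 (adjusted p = 0.00032). With all 6 libraries *Csf1r* had 0.15 ± 0.10 (adjusted p = 0.40), and *Fcer1g*, at 0.52, was no longer called.

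Macrophage markers gave more calls than microglial ones. Of 8 macrophage or monocyte markers, 7 were tested and 4 called higher, and their summed level was 545 to 624 CPM in GFP libraries and 1470 to 2233 CPM in Ezh2 libraries. The most abundant, the lysozyme gene *Lyz2*, had a log2 fold change of 2.19 ± 0.18 (adjusted p = 0.0068), and *F13a1* had the highest, 2.57 ± 0.21. Without *Lyz2* the other 7 summed to 216 to 244 CPM in GFP and 247 to 365 CPM in Ezh2 libraries. *Ly6c2*, a monocyte marker, was lowest at 0.12 ± 0.094 (adjusted p = 0.47). Of 8 microglial markers, 1 was called higher (*Fcrls*, 1.70 ± 0.11) and 1 lower (*Sall1*, -0.63 ± 0.097). Their summed level overlapped between the groups, at 719 to 820 CPM in GFP and 625 to 963 CPM in Ezh2 libraries. The part of these cells in the member values was not tested.

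Neutrophils, which carry the same oxidase, left almost no trace. All 8 neutrophil markers were under 1 CPM in all libraries, *Retnlg* and *Ngp* had 0 counts throughout, and the sum over the list did not exceed 0.917 CPM. T cell markers gave 1 call of 7 (*Cd8a*, 1.38 ± 0.083), with a summed level of 357 to 382 CPM in GFP libraries, 457 to 481 CPM in Ezh2 replicates 1 and 2, and 743 CPM in replicate 3. For the 6 B cell markers edgeR called 0, as did DESeq2 and limma-voom, with 2 at an unadjusted p under 0.05, and their sum was 20.1 to 30.9 CPM over all libraries. The 5 rod markers summed to 360 to 428 CPM in GFP and 385 to 692 CPM in Ezh2 libraries.

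The glial and neuronal lists bear on *Slc7a11*, *Gclm* and *Nqo1*, which are not specific to phagocytes. Of 7 Müller glia and astrocyte markers, 1 was called higher (*Gfap*, 1.01 ± 0.081) and 0 lower, although 4 were lower at the adjusted p alone. *Glul* was the most abundant and the lowest, at -0.49 ± 0.052 (adjusted p = 4.0e-08). The summed level of the list was 14305 to 14809 CPM in GFP libraries and 9110 to 11684 CPM in Ezh2 libraries. For RGC and endothelial markers edgeR, DESeq2 and limma-voom called 0 of 7 and 0 of 5 tested genes in 5 libraries, with 3 and 2 at an unadjusted p under 0.05. All 7 RGC markers had a log2 fold change above 0, and 2 were higher and 0 lower at the adjusted p alone. With all 6 libraries edgeR called 1 RGC marker higher (*Nefl*, 0.59, adjusted p = 0.031). Of the endothelial markers 0 were higher and 1 lower at the adjusted p alone in 5 libraries. The RGC sum was 125 to 129 CPM in GFP and 144 to 161 CPM in Ezh2 libraries. Most of it was *Thy1*, the sort antigen, at 87.2 to 92.6 CPM in GFP and 98.9 to 114 CPM in Ezh2 libraries. *Thy1* was highest in Ezh2 replicate 3, as was the T cell sum, and which cells carried it was not tested. The endothelial sum was 3203 to 3373 CPM in GFP and 2330 to 2932 CPM in Ezh2 libraries. *Kdr* and *Flt1* made up nearly all of the endothelial sum. The other 3 endothelial markers summed to 18.2 to 24.3 CPM in GFP and 21.01 to 23.01 CPM in Ezh2 libraries.

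To set the members against the cells that could carry them, each was divided by 1 marker within the same library, a step chosen after the values were seen. *Cybb* per *Csf1r* was 0.189, 0.184 and 0.180 in GFP replicates 1 to 3 and 0.296, 0.318 and 0.303 in Ezh2 replicates 1 to 3. On this ratio replicate 3 lay between the other Ezh2 libraries, and the Ezh2 mean was 1.66 times the GFP mean. Size and direction depended on the marker. Over the 8 pan-myeloid markers the same quotient ran from 0.768 for *Cd68* to 1.90 for *Itgam*, with 1.12 for *Tyrobp*. The Ezh2 libraries lay above all controls for 6 markers, below them for 1 (*Cd68*) and among them for 1 (*Laptm5*). *Hmox1* per *Csf1r* was 0.0312, 0.0273 and 0.0279 in GFP replicates 1 to 3 and 0.0365, 0.0465 and 0.0435 in Ezh2 replicates 1 to 3, again without overlap. *Rac2* per *Csf1r* differed little in Ezh2 replicates 1 and 2, at 0.251 and 0.241 against 0.218 to 0.235 in GFP libraries, but reached 0.496 in replicate 3. For *Ncf1* the ratio was 0.188 to 0.203 in GFP libraries and 0.207 to 0.276 in Ezh2 libraries. These genes were set against *Csf1r* alone, whose log2 fold change of 0.26 was below the list median of 0.49. That of *Hmox1*, 0.79, was above both but below *Tyrobp* (0.86) and *Cd68* (1.35). Those of *Ncf1* (0.38) and *Rac2* (0.37) were below the median. Their ratios thus also depend on the marker. Exons of *Csf1r* share 873 bases with *Hmgxb3* on the opposite strand.

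Against *Slc1a3*, a glutamate transporter of Müller glia, the lower level of *Slc7a11* narrowed. The ratio was 0.0985, 0.1001 and 0.0958 in GFP replicates 1 to 3 and 0.0935, 0.0948 and 0.0953 in Ezh2 replicates 1 to 3. The Ezh2 mean was 0.963 times the GFP mean, with the groups separated by less than the range within either. *Gclm* per *Slc1a3* overlapped, at 0.0257 to 0.0287 in GFP and 0.0256 to 0.0328 in Ezh2 libraries. *Nqo1* per *Slc1a3* went the other way, at 0.00315 to 0.00438 in GFP and 0.00480 to 0.00592 in Ezh2 libraries, without overlap, although its CPM values overlapped. *Slc1a3* was the only glial marker used as a divisor, and the direction of such a ratio depends on the marker. In 5 libraries the log2 fold change was -0.20 for *Slc1a3*, -0.49 for *Glul* and 1.01 for *Gfap*. Those of *Slc7a11* (-0.26) and *Gclm* (-0.24) lay below *Slc1a3* and *Gfap* and above *Glul*. Whether any of these genes changed within a cell type was not tested.

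**Figure D4:**
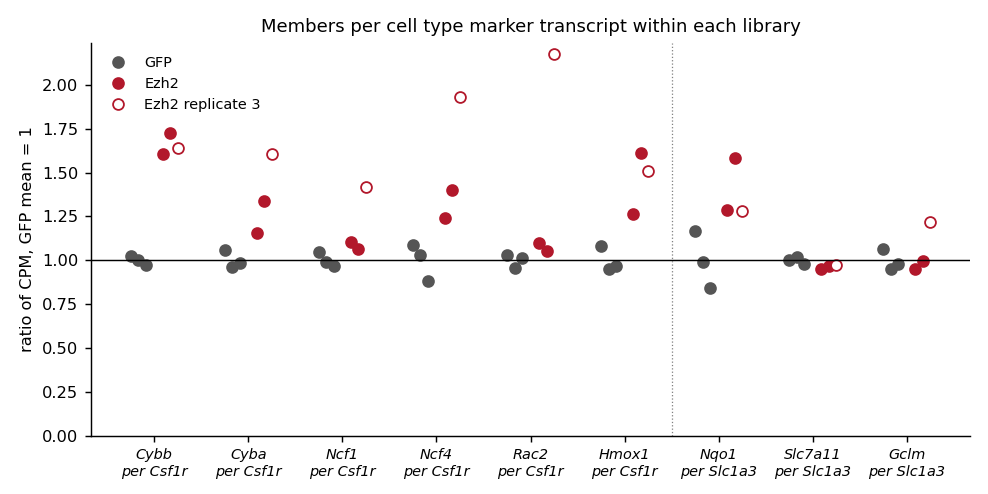
The vertical axis gives the ratio of a member's CPM to that of *Csf1r* or *Slc1a3* in the same library, divided by the GFP mean (grey, GFP; red, Ezh2; open, Ezh2 replicate 3). *Cybb* per *Csf1r* separates the groups with an Ezh2 mean 1.66 times that of GFP (0.768 to 1.90 times over all 8 pan-myeloid markers). *Slc7a11* per *Slc1a3*, the only glial marker used, stays near 1, at 0.963 times.

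Genes whose level followed *Cybb* and *Hmox1* most closely over the 6 libraries were ranked by Pearson's r of log2 CPM among 13769 genes averaging 100 or more normalized counts. For *Cybb* they were *Slc37a2*, *Ttyh2*, *Skap2*, *Mpeg1* and *Sharpin*, with r from 0.995 to 0.999. *Mpeg1*, which encodes a pore-forming protein of macrophages, read 371, 407 and 353 CPM in the controls and 687, 797 and 556 CPM in the Ezh2 libraries. For *Hmox1* they were *Lamp1*, *Vtn*, *Mt1*, *Litaf* and *Smpdl3a*, with r from 0.993 to 0.9996. *Lamp1*, a protein of the lysosomal membrane, read 330.0, 319 and 299.96 CPM in the controls and 447, 538 and 388 CPM in the Ezh2 libraries. Both pairs shared the order of libraries with their partner, including the lower value in replicate 3. The libraries fall into the groups compared, so these correlations largely restate the difference between groups, and they are given as a description over 6 points.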

How the data were processed

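RNA-Seq was done on total RNA of sorted retinal cells with a stranded kit. The authors deposited 1 table of raw counts, with Ensembl genes in rows and 6 libraries in columns. The submitters' processing notes name STAR 2.7.0d and GRCm38. The counter, its annotation release and its strand setting were not given in the sources used here. Of 55573 identifiers, 55480 matched GENCODE M21 (GRCm38), which gave symbols, coordinates and exon lengths.

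The robust quasi-likelihood test of edgeR 4.0.16 (R 4.3.3), after filterByExpr and with TMM scaling, was run on 3 GFP libraries and Ezh2 replicates 1 and 2, with no covariate. That the library the study excluded is replicate 3 was inferred from the libraries its heatmap shows. Two-sided P values received Benjamini-Hochberg adjustment over all tested genes. Calls needed an adjusted p under 0.05 and a fold above 1.5. SE came from the F statistic. CPM used library totals, and 3 counts mark the detection floor, which covers counting error only because reads carried no molecular identifiers.

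The members and gene lists were chosen with earlier results of these data known. Genes named were the members, called genes of the pathway lists, a set of named core genes, and per marker list the extremes and the most abundant. Other settings were DESeq2 1.42.0 and limma-voom (limma 3.58.1), all 6 libraries, omission of single libraries, a block on replicate number, other scaling and filters, and the adjusted p alone. Ratios to *Csf1r* and *Slc1a3* were added after seeing the data. Results for some listed genes are not reported here. The fit was tested on simulated counts. Pictures used matplotlib 3.10.9.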

Additional observations from a re-analysis of the deposited data

Results flagged for a closer look

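Ezh2 replicate 3 entered none of the tests in 5 libraries, and 6 members lay above every GFP library in it, with *Slc7a11* and *Gclm* below every one and *Nqo1* among them. Across 19732 genes 32.7% lay above and 47.1% below every GFP library in that library, so nothing is read from these counts. *Cybb* read 135 CPM there, *Cyba* 110.1 CPM, *Ncf1* 123 CPM, *Ncf4* 34.6 CPM, *Rac2* 222 CPM and *Hmox1* 19.5 CPM. The highest GFP values were 100.4, 81.7, 105, 22.5, 119 and 15.8 CPM. *Rac2* was the member whose replicate 3 value also exceeded both other Ezh2 libraries by more than their range, and *Ncf4* exceeded them slightly.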

How the results depend on the processing

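The 770 genes called in 5 libraries became 498 with all 6, 396 with all 6 and a replicate block, and 3605 by the adjusted p alone. Leaving out 1 library gave 624 to 794 calls. The same numbers recur in both groups, but deviations of same-numbered libraries did not correlate (-0.0043, -0.020 and -0.0092), so no pairing was used. The 2 calls of the oxidase pathway became 1 with a replicate block in 5 libraries (*Acod1* lost, at 0.53; the member *Ncf4* also fell below the fold, at 0.56), 1 to 2 on leaving out 1 library, and 14 by the adjusted p alone. The 3 calls of the oxidative response ranged from 2 to 6 on leaving out 1 library (6 without Ezh2 replicate 1) and were 14 by the adjusted p alone. The 12 marker calls ranged from 10 to 14 on leaving out 1 library, were 9 with all 6 and a replicate block, and were 35 by the adjusted p alone. *Nrros* lost its call without Ezh2 replicate 2 (log2 fold change 0.57), *Acod1* without GFP replicate 3 (0.53), and *Slc40a1* without Ezh2 replicate 2 (0.56).

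Signs turned for small differences. *Nox4* gave -0.16 without GFP replicate 1. *Keap1* gave -0.0078 with the block, -0.0079 without GFP replicate 3 and -0.032 without Ezh2 replicate 2, against 0.067 without Ezh2 replicate 1. *Srxn1* gave -0.13 with 6 libraries, -0.15 with 6 and the block, -0.044 without GFP replicate 2 and -0.055 without Ezh2 replicate 2, against 0.097 without Ezh2 replicate 1. *Sod2* gave -0.0056 with 6 libraries, -0.028 with the block, -0.0056 with both, -0.0060 on library totals, -0.00039 at the filter of 50 counts, -0.028 without GFP replicate 3 and -0.062 without Ezh2 replicate 2, against 0.070 without Ezh2 replicate 1. The cause was not tested. Over 14 settings *Cybb* ranged from 0.87 to 1.06, *Hmox1* from 0.59 to 0.96, *Ncf4* from 0.56 to 0.75, *Rac2* from 0.35 to 0.62 and *Slc7a11* from -0.34 to -0.19. Relative to the pan-myeloid median, *Cybb* was 0.51, *Hmox1* 0.30, *Ncf4* 0.17, *Cyba* 0.096, *Ncf1* -0.11 and *Rac2* -0.12.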
